A study of Mus musculus with 6 samples.

Results

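The genes described here encode the nuclear subunits of the mitochondrial respiratory chain and ATP synthase, read from RNA-seq of mouse testis. Members were all rows annotated as protein coding whose symbol names a subunit of complexes I to IV, cytochrome c or ATP synthase. These were 89 of the 45777 genes in the table, with 7 core and 30 accessory genes of complex I, 4 of complex II, 9 of complex III, 20 of complex IV, 2 of cytochrome c and 17 of ATP synthase. Another 11 rows carry such symbols but are annotated as pseudogenes or noncoding, among them Ndufb1-ps, and were not taken as members. Testis RNA came from wild-type mice fed liquid diet for 16 weeks, with ethanol in one group and without it in the control group, at 10 ml a day and after 5 days of habituation to the control diet. Each diet had 3 libraries of total RNA freed of ribosomal RNA, with strain, age and ethanol content not given in the sources used here. Whether each library is its own animal is not stated in the labels, and p-values therefore cover only the spread among these samples, which may be technical. Total counts ranged from 38935654 to 47420249 per library, and the members took between 0.591% and 0.638% of them.

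Respiratory complexes pass electrons from NADH and succinate to oxygen and pump protons across the inner mitochondrial membrane, and ATP synthase uses the proton gradient to make ATP. Mitochondrial DNA encodes a few of the catalytic subunits, and nuclear genes encode all the others. Male germ cells replace some somatic subunits by forms made almost only in the testis. Cox6b2, Cox7b2 and Cox8c take the place of Cox6b1, Cox7b and Cox8a in complex IV, and Cyct encodes the testis form of cytochrome c beside the somatic Cycs.

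The testis forms dominated all 4 isoform pairs in these testes. Levels are compared between genes as FPKM, the authors' value scaled to transcript length and library size. Cox8c (Gene ID 75483; chromosome 12, 102899306 to 102900534 of the mm10 genome) had 207.2, 211.0 and 214.7 FPKM in the controls, in the order of libraries 1 to 3. Under ethanol it had 179.2, 192.4 and 202.3 FPKM, each below the lowest control. Its somatic counterpart Cox8a (Gene ID 12868; chromosome 19, 7215158 to 7217616) was at 25.7, 27.5 and 27.1 FPKM in controls and 26.3, 25.6 and 28.4 FPKM with ethanol, so the diets overlapped. Cox8 is a small membrane-spanning subunit on the outside of the complex IV core.

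Cox7b2 (Gene ID 78174; chromosome 5, 71442823 to 71548205) was at 215.1, 190.9 and 195.4 FPKM in controls and 171.1, 203.7 and 200.4 FPKM with ethanol, where only library 1 was below the control range. Cox7b, its X-linked counterpart (Gene ID 66142; chromosome X, 106015700 to 106022450), was at 5.98, 4.80 and 4.34 FPKM in controls and 5.46, 6.08 and 6.31 FPKM with ethanol. The pair showed the widest gap of the 4, with a ratio of testis to somatic FPKM between 31.3 and 45.0 over the 6 libraries. The ratio was between 6.82 and 8.08 for Cox8c over Cox8a.

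Cox6b2 (Gene ID 333182; chromosome 7, 4751792 to 4753094) belongs to the subunit that faces cytochrome c. It was at 73.8, 80.9 and 75.5 FPKM in controls and 77.7, 74.3 and 68.2 FPKM with ethanol, with overlap of the diets. Cox6b1 (Gene ID 110323; chromosome 7, 30616971 to 30626114) was at 33.3, 29.0 and 29.9 FPKM in controls and 31.4, 27.7 and 34.4 FPKM with ethanol. The ratio within this pair was the smallest, between 1.98 and 2.79.

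Cyct (Gene ID 13067; chromosome 2, 76353942 to 76360453) was at 76.9, 69.8 and 70.7 FPKM in controls and 71.9, 75.3 and 67.0 FPKM with ethanol. Cycs (Gene ID 13063; chromosome 6, 50562563 to 50566569) was at 11.5, 10.6 and 10.2 FPKM in controls and 13.0, 12.9 and 12.2 FPKM with ethanol, and every ethanol library was above every control. Cytochrome c carries electrons from complex III to complex IV, and it also triggers apoptosis when it leaves the mitochondria. The FPKM ratio of Cyct to Cycs was between 5.47 and 6.97, but that of raw counts only between 1.15 and 1.47. The transcript length behind FPKM, derived from the deposited counts and FPKM, was 3499 bases for Cycs and 737 for Cyct, so the size of this ratio rests on the length the authors used. For the other pairs the count ratios were 2.28 to 3.22 (Cox6b2), 16.9 to 24.3 (Cox7b2) and 5.96 to 7.06 (Cox8c).

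**Figure D1:**
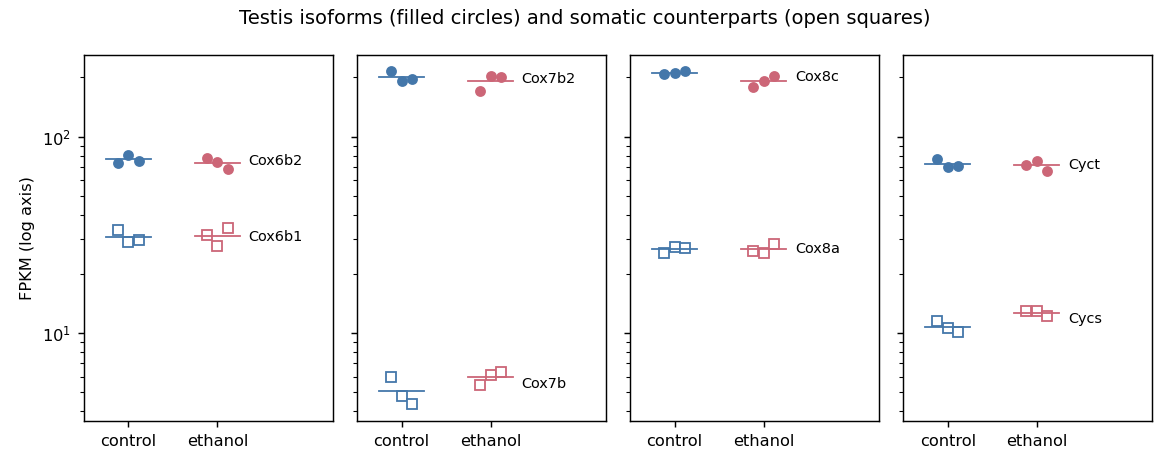
FPKM on a log axis of the 4 testis isoforms (filled circles) and their somatic counterparts (open squares) in each library, with control libraries in blue, ethanol libraries in red, and a line at each mean of 3. The testis form lies above the somatic form in every library of every pair.

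The balance within 3 of the 4 pairs was lower on the side of the testis form in all ethanol libraries. Among single tested genes 18.8% had diets without overlap, and the share among ratios of other gene pairs was not computed. The FPKM ratio of Cyct to Cycs was 6.68, 6.59 and 6.97 in the controls and 5.56, 5.83 and 5.47 with ethanol. On the log2 scale this ratio differed by -0.26 (SE 0.04) between the diets. In counts, the log2 fold change was 0.22 (SE 0.07) for Cycs and -0.04 (SE 0.07) for Cyct. The ratio of Cox7b2 to Cox7b was 36.0, 39.8 and 45.0 in the controls and 31.3, 33.5 and 31.8 with ethanol, a log2 difference of -0.32 (SE 0.10). Log2 fold changes in counts were 0.21 (SE 0.14) for the somatic Cox7b and -0.09 (SE 0.08) for Cox7b2. For Cox8c over Cox8a the ratio was 8.08, 7.67 and 7.93 against 6.82, 7.52 and 7.12, a log2 difference of -0.14 (SE 0.05), with the 2 groups close to each other. Here counts gave -0.02 (SE 0.09) for Cox8a and -0.17 (SE 0.07) for Cox8c. For Cox6b2 over Cox6b1 the diets overlapped, with a log2 difference of -0.08 (SE 0.16). By exact two-sided permutation tests, p was 0.1 for each of the first 3 pairs, the smallest that 3 against 3 allows, and 0.6 for Cox6b2 (Benjamini-Hochberg over the 4 pairs, 0.133 and 0.6), so none passed a threshold of 0.05. The direction for Cox6b2 turned without ethanol library 3 (0.044), and the other 3 differences kept their sign with each library left out. In bulk testis, fewer cells of a type and less RNA per cell cannot be told apart.

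**Figure D2:**
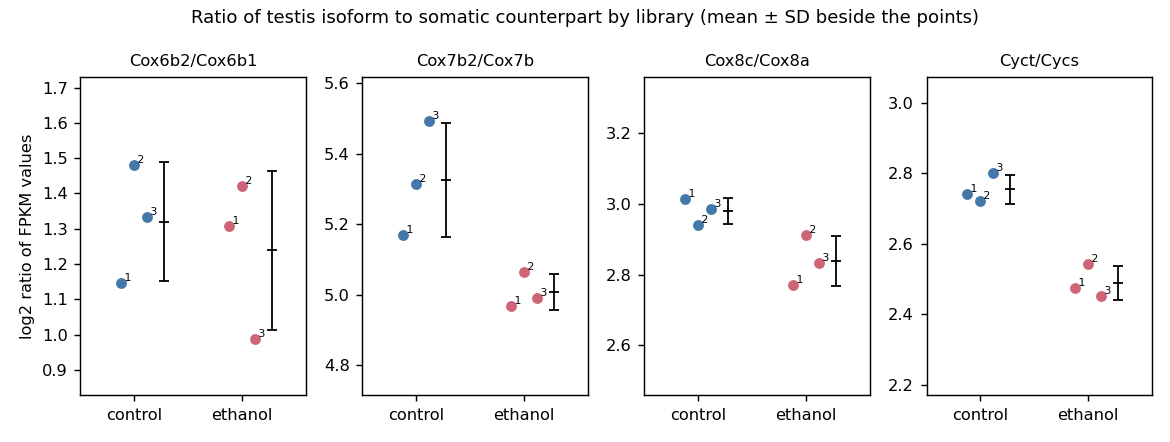
Log2 ratio of testis to somatic FPKM in each numbered library of each diet, with mean ± SD (n = 3) beside the points and the same height of axis in all panels. Control and ethanol libraries separate for Cox7b2/Cox7b, Cox8c/Cox8a and Cyct/Cycs and overlap for Cox6b2/Cox6b1.

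Of the marker genes of testis cell types, 0 passed the edgeR test over all genes, but summed levels of several lists separated the same libraries. The summed level of 6 spermatocyte markers was 3138 to 3215 CPM in controls and 2862 to 2951 CPM with ethanol, where CPM is the count scaled to library size, with 4 of the 6 lower without overlap and Sycp3 and Pgk2 overlapping. Hspa2 and Pgk2 were its largest parts, with control and ethanol means of 1279 and 1073 CPM for Hspa2 and 1096 and 1121 CPM for Pgk2. The sum of 6 round spermatid markers was 1207 to 1330 CPM in controls and 1149 to 1177 CPM with ethanol. Of these, 3 were lower without overlap, and Acrv1, Acr and Tssk1 overlapped. That of 6 elongating spermatid markers overlapped, at 11260 to 13660 and 11200 to 14140 CPM. For 10 Sertoli cell markers the sum ranged from 797.7 to 846 CPM on the control diet and from 921.7 to 1045 CPM under ethanol. Clu was its largest part, with a control mean of 585.7 CPM and an ethanol mean of 682.4 CPM. Among the 10 markers 6 were higher without overlap, while Sox9, Rhox5, Inhbb and Fshr overlapped. Fshr went the other way, with a log2 fold change of -0.09 (SE 0.21). Of single tested genes, 9.76% were higher and 9.01% lower without overlap. The 3 erythroid markers summed to 24.0 to 35.3 CPM in controls and 45.9 to 55.2 CPM under ethanol, and the 3 endothelial markers to 12.7 to 13.2 and 14.8 to 17.6 CPM. Those of 4 peritubular myoid markers were 92.7 to 96.4 and 97.0 to 103.6 CPM, where Acta2 alone did not overlap. Sums of 6 spermatogonial markers overlapped, at 78.3 to 92.6 and 79.8 to 87.6 CPM. The same held for 4 macrophage markers, at 27.0 to 30.7 and 27.9 to 29.9 CPM, and for the muscle markers. The 5 adipocyte markers overlapped, at 10.7 to 17.8 and 15.9 to 37.0 CPM, with Fabp4 and Cfd highest in ethanol library 1. Sums of 6 Leydig cell markers also overlapped, at 585.1 to 622 and 492.8 to 616.4 CPM. Among them Cyp11a1, which starts steroid synthesis, was at 64.8, 67.9 and 41.5 CPM in controls and 21.9, 33.1 and 15.5 CPM with ethanol (log2 fold change -1.30, SE 0.24, edgeR adjusted p = 0.127). The other Leydig cell markers all overlapped. Cyp17a1 stood at -0.67 (SE 0.20) and Insl3 and Lhcgr at -0.04 each, while Hsd3b1 and Star went the other way, at 0.15 and 0.12. In the spermatocyte, spermatid and Sertoli cell lists 0 markers were at 0 counts, so the libraries carried the defining genes of the labelled tissue, while the 4 epididymis markers summed to at most 0.235 CPM. The part of these markers in the isoform ratios was not tested.

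Promoter sequences were read for the cytochrome c pair and the Cox6b pair, to set somatic and testis forms side by side, and for Sdha as a subunit gene with several such matches. RefSeq promoters (GRCm38.p6, the assembly of mm10) were found for 71 of the 89 members. Each sequence is the 250 bases before the start site, 5′ to 3′ on the strand of the gene. Capitals mark matches, on either strand, to GCGCA, any base and GCGC in a row (NRF1), CCGGAAG (ETS factors such as GABPA), AANATGGCG (YY1) or TGACGTCA (the cyclic AMP response element, CRE). None of the 4 motifs contains another, and motifs and genes to show were chosen after matches had been seen.
Cycs (chr6:50566570-50566819, minus strand): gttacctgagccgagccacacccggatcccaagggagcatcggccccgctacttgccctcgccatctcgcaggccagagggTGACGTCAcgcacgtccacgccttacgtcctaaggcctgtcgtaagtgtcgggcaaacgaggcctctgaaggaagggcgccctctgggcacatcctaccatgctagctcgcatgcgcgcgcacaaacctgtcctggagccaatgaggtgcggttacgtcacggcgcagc
Cyct (chr2:76360454-76360703, minus strand): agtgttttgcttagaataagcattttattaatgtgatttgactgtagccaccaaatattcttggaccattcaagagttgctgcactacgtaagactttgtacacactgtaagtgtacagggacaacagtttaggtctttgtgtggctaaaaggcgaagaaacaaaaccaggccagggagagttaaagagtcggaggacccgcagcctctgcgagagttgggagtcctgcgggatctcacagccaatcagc
Cox6b1 (chr7:30626115-30626364, minus strand): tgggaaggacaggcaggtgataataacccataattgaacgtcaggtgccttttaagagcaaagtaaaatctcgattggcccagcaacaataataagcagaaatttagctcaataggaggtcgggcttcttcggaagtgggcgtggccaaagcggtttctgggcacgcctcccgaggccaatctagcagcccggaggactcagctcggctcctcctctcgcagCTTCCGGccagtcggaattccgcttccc
Cox6b2 (chr7:4753095-4753344, minus strand): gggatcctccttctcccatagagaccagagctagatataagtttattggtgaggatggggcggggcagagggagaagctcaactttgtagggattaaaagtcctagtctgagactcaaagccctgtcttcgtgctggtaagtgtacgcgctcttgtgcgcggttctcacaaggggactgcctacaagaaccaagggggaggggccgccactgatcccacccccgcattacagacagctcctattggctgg
Sdha (chr13:74350241-74350490, minus strand): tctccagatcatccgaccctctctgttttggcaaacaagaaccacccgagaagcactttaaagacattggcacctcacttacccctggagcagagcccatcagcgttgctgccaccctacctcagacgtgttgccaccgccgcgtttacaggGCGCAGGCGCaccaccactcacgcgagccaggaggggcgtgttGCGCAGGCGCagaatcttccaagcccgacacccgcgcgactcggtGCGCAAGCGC

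The Cycs window holds 1 exact CRE and 23 CpG dinucleotides, and the Cyct window 0 of the 4 motifs and 6 CpG. Only exact letters were counted, and near matches were left unmarked. In the Cycs window tcgcatgcgc differs from the NRF1 motif in its first base alone, and ttacgtca from the CRE in its second. Cox6b1 has 1 ETS match and 14 CpG, Cox6b2 0 matches to the 4 motifs and 8 CpG, and Sdha 3 NRF1 matches. The Cox7b2 window also held 0 matches, with 9 CpG, as did those of the somatic genes Cox7b, with 5 CpG, and Cox8a, with 11. Over all members with a promoter, NRF1 letters stood in 13 of 71, or 18.3%, against 7.34% of 13621 other tested protein-coding genes and 4.23% of all 27025 genes with a promoter. For the ETS motif the shares were 16.9%, 12.6% and 7.83%, for CRE 7.04%, 2.55% and 1.77%, and for YY1 4.23%, 1.97% and 1.29%. The GC box GGGGCGG, which Sp1 binds, was in 22.5% of members and 37.3% of other tested coding genes, and the TATA letters TATAAA in 9.86% and 9.32%. A match describes letters, not binding, and the lack of an exact match does not show that a site is absent.

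Across complexes, levels spanned a wide range even among subunits that are built into the same assembly. The highest member was Atp5b, the catalytic beta subunit of ATP synthase, at 278.1 ± 7.09 FPKM (SD, n = 6, both diets), followed by Cox4i1, the ubiquitous form of complex IV subunit 4, at 250.4 ± 19.0 FPKM. Median FPKM was 86.8 in ATP synthase, 71.1 in complex IV, 64.4 in complex III, 60.8 in accessory and 43.6 in core complex I, and 38.8 in complex II. Within core complex I the highest was Ndufv2, an iron-sulfur subunit of the NADH-binding module, at 95.3 ± 3.68 FPKM, and the lowest Ndufs7, which holds the last iron-sulfur cluster before ubiquinone, at 13.8 ± 1.30 FPKM. Among accessory subunits Ndufa7 was highest at 162.4 ± 7.80 FPKM and the Ndufb4 copy Ndufb4b lowest at 3.99 ± 0.49 FPKM. In complex III the core protein gene Uqcrc1 was at 137.2 ± 8.29 FPKM and Cyc1, the cytochrome c1 that hands electrons to cytochrome c, was lowest at 13.5 ± 1.03 FPKM. In ATP synthase the lowest was Atp5g2, 1 of 3 genes for the same ring subunit, at 24.3 ± 1.47 FPKM. Complex II was the most even, from 30.5 ± 0.83 FPKM for the anchor subunit Sdhd to 63.7 ± 3.50 FPKM for the iron-sulfur subunit Sdhb.

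**Figure D3:**
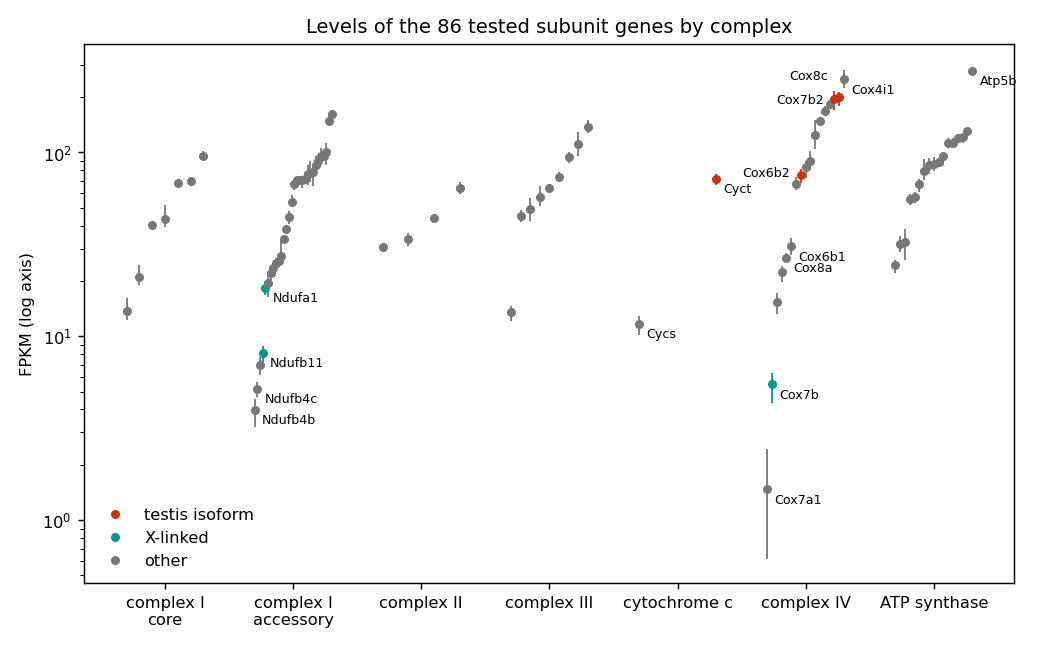
Mean FPKM of the 6 libraries on a log axis for each of the 86 tested members, by complex, with bars from the lowest to the highest library. Red marks the 4 testis isoforms and green the 3 X-linked genes, which lie near the low end of their complexes.

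The 3 X-linked members were among the lowest, an observation made after their values were seen. The X chromosome is silenced during male meiosis, but any part of this in the levels here was not tested. Cox7b was the 7th lowest of the 89 members by mean FPKM, Ndufb11 the 9th lowest at 8.15 ± 0.57 FPKM, and Ndufa1 the 14th lowest at 18.4 ± 1.54 FPKM, where the median of the 86 autosomal members was 68.1 FPKM. Ndufa1, a small membrane subunit of complex I on chromosome X (37187588 to 37191238), was at 9.62, 9.22 and 9.38 CPM in controls and 10.3, 10.9 and 11.0 CPM with ethanol, above all controls (log2 fold change 0.19, SE 0.10, edgeR adjusted p = 0.433). Log2 fold changes were 0.21 (SE 0.14) for Cox7b and 0.04 (SE 0.12) for Ndufb11. Of 1031 X-linked genes tested 64.5% had a log2 fold change above 0, with a median of 0.08, against 51.5% and 0.01 over all tested genes.

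Complex IV forms of other tissues were nearly silent. Cox8b, the heart and muscle form of Cox8, had 2 reads in control library 3 and 0 in every other library. Cox6a2, the heart and muscle form of Cox6a, had 7 reads, all in ethanol library 3. Its span overlaps Itgad, so their source is uncertain. Cox4i2, a form known from lung and other oxygen-sensing tissue, had 37 reads over the 6 libraries, with 5 to 14 in 4 of them and 0 in ethanol libraries 2 and 3. These 3 were the members too low to be tested. Cox7a1, the heart and muscle form of Cox7a, was at 1.47 ± 0.69 FPKM against 147.8 ± 4.38 FPKM for the ubiquitous Cox7a2, and Cox6a1 stood at 89.9 ± 7.94 FPKM. Ndufa4, a subunit found with complex IV despite its name, was at 22.3 ± 1.62 FPKM, and its relative Ndufa4l2, known as a hypoxia-induced gene, at 15.4 ± 1.68 FPKM.

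Between the diets no member passed the test over all genes. Fold changes come from edgeR's quasi-likelihood test on counts, with Benjamini-Hochberg adjustment over all 25073 genes tested, of which 0% passed at an adjusted p of 0.05 in either direction. The lowest adjusted p among the 86 tested members was 0.163. Without adjustment, 7 of the 86 members had an edgeR p under 0.05, or 8.14%, where 13.3% of all tested genes were at that level. Of these members 1 was higher and 6 lower, where 7.45% of all tested genes were higher and 5.89% lower. Members thus fell below the background on the higher side only. Libraries of the 2 diets did not overlap for 4 members on the higher side and 5 on the lower, 4.65% and 5.81%, where 9.76% and 9.01% of all tested genes did not overlap. Both shares of members without overlap were below those of the background. Limma-voom called 0 members, and 0.012% of all tested genes higher and 0.00798% lower. Log2 fold changes ran from -0.34 to 0.22, with 74 of the 86 within 0.15 of 0, and the median standard error was 0.08.

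Signs leaned to the lower side, with 57 members below 0 and 29 above, or 33.7%, where 51.5% of all tested genes were above 0. The median log2 fold change was -0.02, against 0.01 over all tested genes. By complex, 8 of 9 members were below 0 in complex III, 13 of 17 in complex IV, 11 of 17 in ATP synthase, 18 of 30 among accessory and 4 of 7 among core subunits of complex I, and 2 of 4 in complex II. The size of the lean changed with single libraries. It was stronger without control library 2, with 15 members above 0 (median -0.08), and without ethanol library 3, with 19 (-0.07). There were 34 of 87 above 0 without control library 1, 40 of 87 without control library 3 and 36 of 87 without ethanol library 2. Without ethanol library 1 the lean was gone, with 45 of 86 above 0 (median 0.0041). On log2(TPM + 1) 57 of 86 were above 0 with a median of 0.03, where the median of all genes was 0.04.

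**Figure D4:**
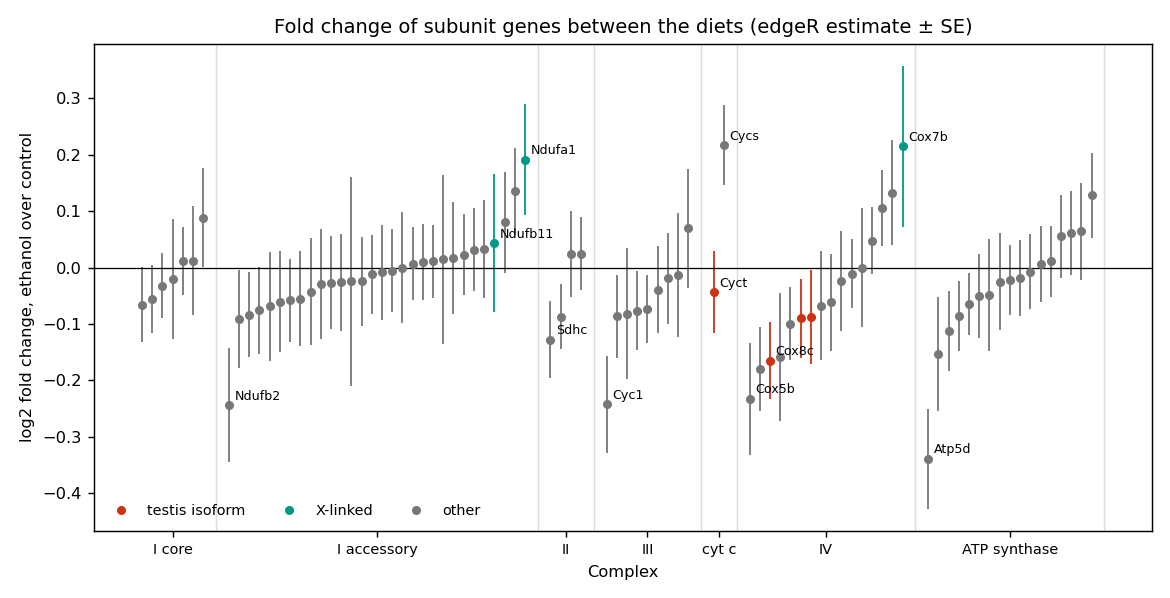
Log2 fold change, ethanol over control, of 85 tested members as edgeR estimates ± SE, ordered within each complex, with testis isoforms in red and X-linked genes in green. Cox7a1 is left out for its wide error (-0.21, SE 0.46). Most estimates lie within 0.15 of 0.

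The members' level moved from library to library together with that of other genes with short transcripts. Members are short, with a median derived transcript length of 767 bases, against 3157 for other genes of at least 5 CPM. Their median deviation from the gene mean was 0.04, -0.07 and 0.07 (log2 CPM) in the controls, in library order, and -0.05, -0.03 and 0.05 under ethanol. For 1117 other genes with transcripts under 1000 bases it was 0.03, -0.08 and 0.10, and -0.08, -0.02 and 0.06. The 6 libraries took the same order on both measures, from control library 2 at the low end to control library 3 at the high end. What part this has in the members' signs was not tested. With this short-transcript level as a covariate, chosen after seeing the data, 43 of 86 members were above 0 and the median was 0.0001. The covariate orders the libraries as the members' own level does, so the fit cannot decide that part. That fit called 1.44% of all tested genes higher and 0.933% lower, and 1 member, Atp5d.

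**Figure D5:**
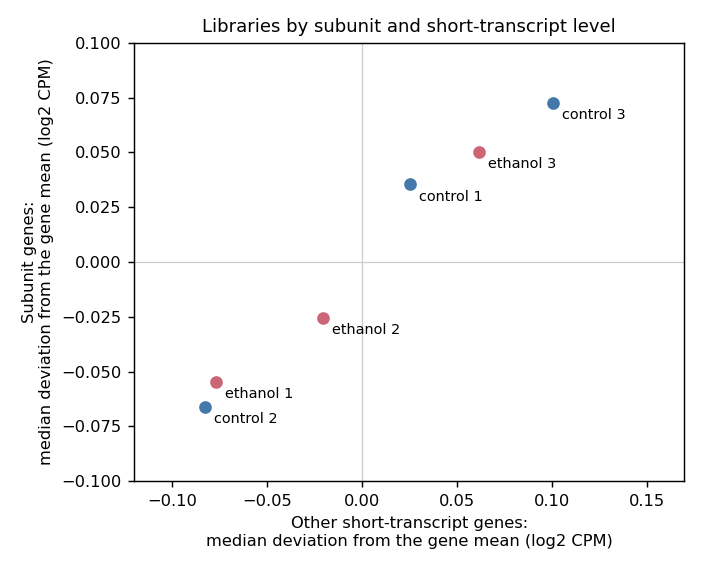
Median deviation from the gene mean in log2 CPM of the subunit genes (vertical) against that of 1117 other genes with short transcripts (horizontal), 1 point per library, with controls in blue and ethanol in red. Each diet has libraries at the low and the high end.

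Of ATP synthase, the member farthest from 0 was Atp5d, the delta subunit of the rotating central stalk. It was at 34.3, 38.1 and 40.4 CPM in controls and 31.2, 26.9 and 31.1 CPM with ethanol, and every ethanol library was below every control. Its log2 fold change was -0.34 (SE 0.09, edgeR adjusted p = 0.163). It passed with DESeq2 (-0.34, adjusted p = 0.0385), which called 0.695% of its 18265 genes with an adjusted p lower and 1.11% higher, and with the short-transcript covariate (-0.33, edgeR adjusted p = 0.0479). The gene spans chromosome 10, 80138698 to 80145828, where it overlaps Cbarp, whose mean CPM was 1.08 in controls and 1.53 with ethanol. Atp5md, a small membrane subunit, was at 24.6, 26.4 and 26.7 CPM in controls and 27.2, 28.5 and 29.1 CPM with ethanol, all above controls (log2 fold change 0.13, SE 0.07, edgeR adjusted p = 0.494). Atp5j, the coupling factor 6 of the peripheral stalk, stood at -0.11 (SE 0.07), Atp5b at -0.06 (SE 0.06) and Atp5g2 at 0.06 (SE 0.09), all with overlap.

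Cytochrome c gave the member of smallest p on the higher side, Cycs. It was at 40.6, 36.8 and 36.4 CPM in controls and 44.3, 45.0 and 43.0 CPM with ethanol, without overlap. The log2 fold change was 0.22 (SE 0.07, edgeR adjusted p = 0.235). Cyct had a mean of 53.8 ± 3.09 CPM in controls and of 52.2 ± 2.86 CPM with ethanol (SD, n = 3), and its log2 fold change of -0.04 (SE 0.07) turned to 0.01 on log2(TPM + 1).

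In complex III the smallest p was that of Cyc1, at 24.7, 24.4 and 23.5 CPM in controls and 21.0, 18.5 and 21.8 CPM with ethanol. All ethanol libraries were lower, and the log2 fold change was -0.24 (SE 0.09, edgeR adjusted p = 0.255). Uqcrc1 stood at -0.09 (SE 0.07), and Uqcr11, a small subunit and the only member of the complex above 0, at 0.07 (SE 0.11). In complex II, Sdhc, which anchors the enzyme in the membrane, was at 48.6, 45.6 and 45.7 CPM in controls and 43.4, 40.8 and 43.8 CPM with ethanol. Sdha, the flavoprotein that oxidises succinate, was at 138.8, 146.1 and 145.3 CPM in controls and 135.3, 131.3 and 138.5 CPM with ethanol. Both were lower in every ethanol library, by margins under 3 CPM, with log2 fold changes of -0.13 (SE 0.07) and -0.09 (SE 0.06, edgeR adjusted p = 0.445 and 0.553). Sdhb and Sdhd each stood at 0.02.

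Complex IV had 3 members with an unadjusted edgeR p under 0.05, Cox5a, Cox5b and Cox8c, all on the lower side. They were 17.6% of its 17 tested members, where 5.89% of all tested genes were lower and 13.3% in either direction at that level. Cox5a, a subunit on the matrix side, was at 65.3, 68.9 and 71.3 CPM in controls and 60.1, 55.8 and 65.5 CPM with ethanol, where only library 3 reached the control range (log2 fold change -0.18, SE 0.07, edgeR adjusted p = 0.324). Cox5b, which binds zinc, was at 84.0, 73.3 and 97.6 CPM in controls and 74.7, 65.6 and 76.6 CPM with ethanol, with overlap through control library 2 (-0.23, SE 0.10, edgeR adjusted p = 0.341). Cox8c was at 110.4, 110.6 and 116.3 CPM and 92.4, 101.1 and 107.3 CPM, without overlap (-0.17, SE 0.07, edgeR adjusted p = 0.327). Cox7b2 and Cox6b2 both stood at -0.09 (SE 0.08 and 0.07), Cox8a at -0.02 (SE 0.09) and Cox6b1 at -0.0005 (SE 0.11). Ndufa4 was the member on the higher side without overlap, at 11.8, 12.3 and 11.2 CPM in controls and 13.1, 12.5 and 13.1 CPM with ethanol (0.13, SE 0.09). Cox7a2l, which links complexes III and IV into supercomplexes, stood at 0.11 (SE 0.07), Cox7a2 at 0.05 (SE 0.06), Cox4i1 at -0.06 (SE 0.09), Cox6a1 at -0.07 (SE 0.10) and Ndufa4l2 at -0.16 (SE 0.11).

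Complex I is the largest complex and takes electrons from NADH. Of its 37 members 1 had an unadjusted edgeR p under 0.05, the small accessory subunit Ndufb2, where 13.3% of all tested genes were at that level. It was at 20.6, 18.9 and 21.2 CPM in controls and 15.1, 16.9 and 19.3 CPM with ethanol, where only library 3 reached the control range (log2 fold change -0.24, SE 0.10, edgeR adjusted p = 0.332). Ndufc1, another small accessory subunit, was at 43.9 ± 3.32 and 48.2 ± 2.59 CPM (SD, n = 3), a log2 fold change of 0.13 (SE 0.08). All 7 core subunits overlapped between the diets, from -0.07 (SE 0.07) for Ndufv1, which binds NADH, to 0.09 (SE 0.09) for Ndufs3. Ndufv2 and Ndufs7 each stood at 0.01, Ndufa7 at -0.0053 and Ndufb4b at -0.02 (SE 0.18). Ndufb4b and Ndufb4c are close copies of Ndufb4, so that reads could be split among them.

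Mitochondrially encoded subunits took more reads relative to the nuclear ones in 2 ethanol libraries. Summed counts of the 13 mitochondrial protein genes, divided by those of the 89 members, were 0.750, 0.791 and 0.721 in controls and 0.787, 0.898 and 0.847 in ethanol libraries 1, 2 and 3, so that library 1 lay within the control range. COX1, the catalytic subunit of complex IV, made up most of them at 3216, 3107 and 3125 CPM in controls and 3187, 3760 and 3664 CPM with ethanol (log2 fold change 0.17, SE 0.06, edgeR adjusted p = 0.298). ND1, a membrane subunit of complex I, was at 141.3, 156.3 and 144.0 CPM in controls and 158.4, 171.0 and 172.2 CPM with ethanol, above all controls (0.18, SE 0.06, edgeR adjusted p = 0.251). The others went both ways, with CYTB at -0.11 (SE 0.09) and ND6 at -0.21 (SE 0.20), and 7 of the 13 were below 0 with a median of -0.06.

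Other genes of oxidative metabolism were read from set lists, and 0 of them passed over all genes. Of 46 tested assembly factors 31 were below 0, with a median of -0.03, and 3 had an unadjusted edgeR p under 0.05, all lower. These 6.52% lay near the 5.89% of all tested genes on the lower side and below the 13.3% in either direction. Lyrm7, which matures the iron-sulfur protein of complex III, was at 41.0, 42.1 and 45.5 CPM in controls and 37.6, 37.5 and 35.3 CPM with ethanol, below all controls (log2 fold change -0.22, SE 0.07, edgeR adjusted p = 0.23). Coa6, a copper chaperone factor of complex IV, stood at -0.43 (SE 0.17), and on the higher side Ndufaf4 at 0.26 (SE 0.13) and Sdhaf3 at 0.24 (SE 0.13). The citric acid cycle had 8 of 14 genes below 0 with a median of -0.03, from Dld at -0.09 (SE 0.06) and Idh3a at -0.11 (SE 0.08) to Suclg2 at 0.11 (SE 0.08) and the fumarase Fh1 at 0.20 (SE 0.09). Regulators of mitochondrial biogenesis had 8 of 15 above 0 with a median of 0.01, with Pprc1 at 0.24 (SE 0.19), Gabpb1 at 0.09 (SE 0.08), the nuclear receptor Esrra at -0.16 (SE 0.09) and the mitochondrial RNA polymerase Polrmt at -0.20 (SE 0.11).

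The list of germ cell forms of other mitochondrial and energy genes had 13 of 16 below 0 and a median of -0.03. It also holds genes not particular to germ cells, Vdac3, Gpx4 and Cpt1b among them. Pgam2, a glycolytic mutase of muscle and testis, was at 478.7, 457.0 and 510.1 CPM in controls and 415.9, 409.5 and 441.3 CPM with ethanol, below all controls (log2 fold change -0.19, SE 0.06, edgeR adjusted p = 0.225). Oxct2a stood at -0.14 (SE 0.08), and the germ cell phosphoglycerate kinase Pgk2, also in the spermatocyte marker list, and Spata19, a sperm mitochondrial protein, at 0.03 each. Among genes that feed or uncouple the chain, 8 of 13 were above 0, with a median of 0.04. Slc25a14, a carrier related to uncoupling proteins, was at 5.32, 4.46 and 3.88 CPM in controls and 6.42, 6.15 and 6.53 CPM with ethanol (0.48, SE 0.14, edgeR adjusted p = 0.189). Slc25a4, the ADP/ATP carrier of heart and muscle, stood at 0.23 (SE 0.09) without overlap. Etfb, a subunit of the flavoprotein that brings electrons from fatty acid oxidation, was at 22.8, 25.0 and 25.3 CPM in controls and 21.8, 17.5 and 17.9 CPM with ethanol (-0.35, SE 0.10, edgeR adjusted p = 0.187), and Dhodh stood at -0.22 (SE 0.14).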

How the data were processed

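Testis RNA of 6 libraries, 3 per diet, was read from 1 table. It held the authors' read counts per gene, whole and not normalized, per the file headers. The same table gave the authors' FPKM and TPM, per the file headers. Per the submitters' processing notes the aligner was HISAT2 and the genome mm10. The kit was stranded, per the labels' protocols, while the aligner's version, the counting tool and its strand and multi-match settings were not given in the sources used here. Values of the 22 members whose span overlaps another tested gene, and of genes with close copies, are therefore uncertain. No sample column (0) lay outside the 6 libraries. In all 15 pairs of libraries counts differed beyond sampling noise (chi-square per gene at least 7.18).

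Counts were tested with edgeR 4.0.16 in R 4.3.3: filterByExpr, TMM scaling, quasi-likelihood F-test, no covariate, Benjamini-Hochberg adjustment over all 25073 genes tested, threshold 0.05. CPM values are TMM-scaled, and each standard error is the size of the log2 fold change over the root of F. Isoform ratios were log2 of FPKM quotients with no pseudocount, compared by exact permutation tests. Coordinates are 1-based, from an NCBI gene table of GRCm38.p6 in which 89 members were found by Gene ID. The edgeR fit was tested on simulated counts. Named members were the isoform pairs, the highest, lowest and smallest-p members of each complex, the 8 of smallest p in each direction, and untested members, with up to 2 genes per direction from each further list. Sdha, Ndufb11, Ndufb4c and the X-linked group, beyond this rule, were taken after their values were seen. The members and lists were chosen with earlier results of these data known. Alternatives were RLE, upper-quartile and no scaling factors, no filter, 1 CPM in 3 libraries, DESeq2 1.42.0, limma 3.58.1 (voom, and trend on log2(FPKM + 1), log2(TPM + 1) and log2(FPKM + 0.1)), the replicate number as a block, protein-coding genes alone, a threshold of 0.1 and each library left out. The covariate for short transcripts was added after the data were seen.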

Additional observations from a re-analysis of the deposited data

How the results depend on the processing

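Over all genes, 0 higher and 0 lower calls became 203 and 127 with DESeq2, 3 and 2 with limma-voom, 5 and 10 with the replicate number as a block, 360 and 234 with the short-transcript covariate and 4 and 1 at a threshold of 0.1. With upper-quartile factors or the filter of 1 CPM there were 2 higher, and without 1 library 0 to 1 higher and 0 to 2 lower. Of the members, 0 were called in every setting but DESeq2 and the covariate, which called 1 lower, Atp5d. Members above 0 were 46 with total counts alone, 57 on log2(TPM + 1) and 15 to 45 without 1 library. Replicate numbers share only a number: deviations of same-numbered libraries correlated at -0.131, 0.0338 and 0.397 across 13229 genes, and the block changed no call of a member. Isoform ratio differences without 1 library were -0.17 to 0.044 for Cox6b2, -0.39 to -0.23 for Cox7b2, -0.18 to -0.11 for Cox8c and -0.29 to -0.24 for Cyct; paired by number, the smallest exact p is 0.25.

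Signs turned in some named members, most of them near 0 and Cox7a1 with a wide error. On log2(TPM + 1) these were Cox4i1 (0.0009), Cox6b1 (0.0491), Cox8a (0.0309), Cyct (0.0103), Ndufa7 (0.0539) and Ndufb4b (0.0194). With total counts alone they were Cox6b1 (0.025), Cox8a (0.0012), Ndufa7 (0.0209) and Ndufb4b (0.0012), and with the short-transcript covariate Cox6b1 (0.0223), Ndufa7 (0.0269) and Ndufb4b (0.0028). On log2(FPKM + 1) and log2(FPKM + 0.1), Cox6b1 was at 0.0173 and 0.0177, Ndufa7 at 0.0219 and 0.0220 and Ndufs7 at -0.0103 and -0.0115, and Cox6b1 was at 0.003 with the filter of 1 CPM. Without 1 library the range crossed 0 for Cox4i1 (-0.153 to 0.0215), Cox6a1 (-0.154 to 0.0239), Cox6b1 (-0.0941 to 0.075), Cox7a1 (-0.52 to 0.25), Cox8a (-0.0856 to 0.0048), Ndufa7 (-0.0715 to 0.0448), Ndufb4b (-0.14 to 0.11), Ndufs3 (-0.0034 to 0.15), Ndufs7 (-0.0318 to 0.0728), Ndufv2 (-0.0305 to 0.0292), Sdhb (-0.0402 to 0.0796) and Uqcr11 (-0.0269 to 0.172). The cause was not tested. With 3 libraries per diet, even differences of several standard errors did not pass, such as Atp5d at -0.34 (SE 0.09, edgeR adjusted p = 0.163). The lack of a call therefore does not exclude differences of that size.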
